A study of Homo sapiens with 9 samples.

Results

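The genes followed here are 10 members of the machinery that moves a cell through G1 into S phase: the D cyclin genes CCND1, CCND2 and CCND3, the E cyclin genes CCNE1 and CCNE2, the kinase genes CDK2, CDK4 and CDK6, the inhibitor gene CDKN1B and the retinoblastoma gene RB1. They were taken by gene symbol from a table of 25084 genes, and all 10 were present. The cells were LAN5, a human neuroblastoma line in long use, and their RNA was sequenced 72 h after nucleofection (delivery by electric pulse) with siRNAs, short RNAs that lead a matching transcript to be cut. Each of 3 siRNAs was represented by 3 libraries: siCTR, the control, siMYCN (numbered siMYCN_2 in the labels), which targets MYCN, and siHAND2 (numbered siHAND2_3), which targets HAND2. All groups shared the line, the nucleofection and the time of collection, and each knockdown rests on 1 siRNA label. Nothing in the labels says that replicates came from separate cultures, so p-values measure only the spread between these libraries.

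D cyclins bind CDK4 and CDK6, and E cyclins bind CDK2. The active kinases phosphorylate RB1, which then lets go of the E2F factors that switch on genes for DNA replication. CDKN1B (the protein p27) binds and restrains cyclin E with CDK2, and is itself marked for destruction by a ubiquitin ligase that contains SKP2. In neuroblastoma this pathway is of interest because CCND1 is often highly expressed, and because MYCN is known for driving entry into the cycle.

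The values are CPM, read counts scaled to a common library total, and the spacing of the lowest values put the depth at 21.1 to 32.7 M assigned reads per library. MYCN fell to 70.0% of its siCTR mean in siMYCN and to 49.6% in siHAND2. HAND2 fell to 54.2% in siHAND2 and measured 114% of siCTR in siMYCN. All 8 noradrenergic neuroblastoma markers passed the filter on low values, with TH lowest at 2.95 CPM in the controls, and their summed level was 2109 to 2246 CPM with siCTR, 2681 to 2764 with siMYCN and 2175 to 2285 with siHAND2. At an adjusted p of 0.05, limma called 7 of them higher and none lower in siMYCN, beside 24.5% and 11.4% of all genes tested. In siHAND2 it called 2 higher and 3 lower, beside 18.1% and 11.8%, with log2 fold changes from -1.01 (DBH) to 0.95 (STMN2). Of 11 Schwann cell and fibroblast markers, 6 passed. All 6 were called higher by limma in siMYCN, and 5 higher and 1 lower in siHAND2, beside the shares of all genes just given. With siHAND2, DCN went from 0.431 to 11.02 CPM and PDGFRA from 121 to 341 CPM. The 1 lower was PMP22, a Schwann cell marker, which fell there by 1.56 (limma adjusted p = 8.26e-13). PMP22 stood at 99.8 CPM with siCTR, 150 with siMYCN and 33.1 with siHAND2. The sum over all 11 was 806 to 868 CPM with siCTR, 1113 to 1144 with siMYCN and 1500.3 to 1641 with siHAND2, of which VIM alone gave 525, 696 and 1011 CPM. The Schwann cell markers SOX10 and S100B and the fibroblast marker COL1A1 stayed below 1 CPM on average in every group, and no marker of either list was at 0 in any library. The part of these markers in the results below was not tested. In bulk RNA, fewer cells with a transcript and less transcript per cell cannot be told apart.

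In the control cells the 10 genes covered a wide span of levels. Divided by the length of the canonical transcript, CCND1 was the highest at 235 ± 10.9 CPM per kb. CDKN1B followed at 83.9 ± 3.42 CPM per kb, CDK4 at 79.0 ± 1.80 and CDK6 at 58.5 ± 1.06. CDK2 measured 22.9 ± 0.409 and RB1 19.6 ± 0.674 CPM per kb. CCND3 (9.16 ± 0.481), CCNE1 (6.65 ± 0.496), CCNE2 (5.03 ± 0.543) and CCND2 (1.34 ± 0.0799 CPM per kb) made up the low end (SD, n = 3 libraries each). No neighbours in this order overlapped in their siCTR libraries, although CDKN1B and CDK4 came close, with the lowest CDKN1B library at 81.3 and the highest CDK4 library at 81.03 CPM per kb. The order was identical in siMYCN, and in siHAND2 CCNE1 and CCNE2 changed places with overlapping libraries. By CPM alone CDK6 exceeded CDK4, and the long CDK6 transcript (11.7 kb against 1.86 kb) turned that order around per kb. Which transcripts the authors counted is not given in the sources used here, so the lengths are those of an annotation and the order is approximate.

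**Figure D1:**
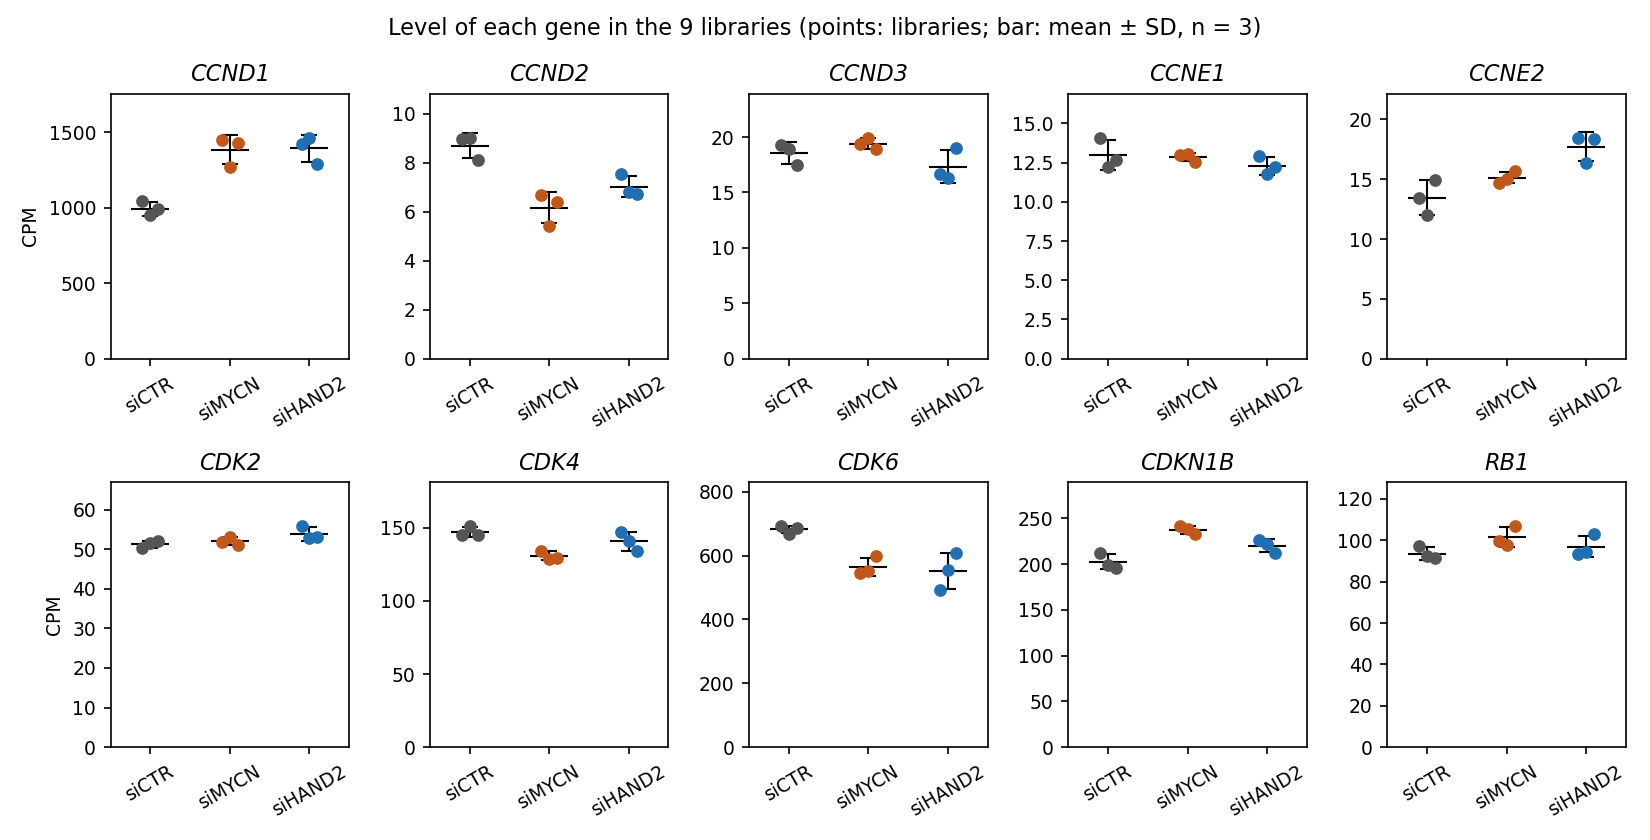
CPM of each of the 10 genes (vertical axes, from 0, a separate scale per gene) in the siCTR, siMYCN and siHAND2 libraries, with points for libraries and bars for the mean ± SD of 3. CCND1 averages 994 CPM in siCTR, below every library of the knockdowns (means 1384 and 1394 CPM), while CCNE1 overlaps in all groups.

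After either knockdown CCND1 was higher and CDK6 and CCND2 were lower than in control cells, and the inhibitor gene CDKN1B was higher. CDK4 fell in siMYCN and CCNE2 rose in siHAND2. CCND3, CCNE1, CDK2 and RB1 passed the test in neither. In siMYCN against siCTR, 5 of the 10 genes passed an adjusted p of 0.05 by limma, corrected over the 14495 genes tested, 2 higher and 3 lower. That compares with 35.9% of all genes tested, 24.5% higher and 11.4% lower. In siHAND2 against siCTR, 5 of the 10 passed, 3 higher and 2 lower, beside 29.9% of all genes, 18.1% higher and 11.8% lower. The libraries did not overlap for 6 of the 10 genes in siMYCN against siCTR (49.5% of all genes), for 6 in siHAND2 against siCTR (42.4%) and for 3 in siHAND2 against siMYCN (38.7%). The median log2 fold change of the 10 genes was 0.04 in siMYCN and -0.0085 in siHAND2, against 0.06 and 0.04 over all genes tested. Both comparisons use the same 3 control libraries. Over all genes, 68.3% of the siMYCN calls were higher with CPM as deposited and 50.6% after median-ratio rescaling, and for siHAND2 the shares were 60.6% and 45.6%.

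**Figure D2:**
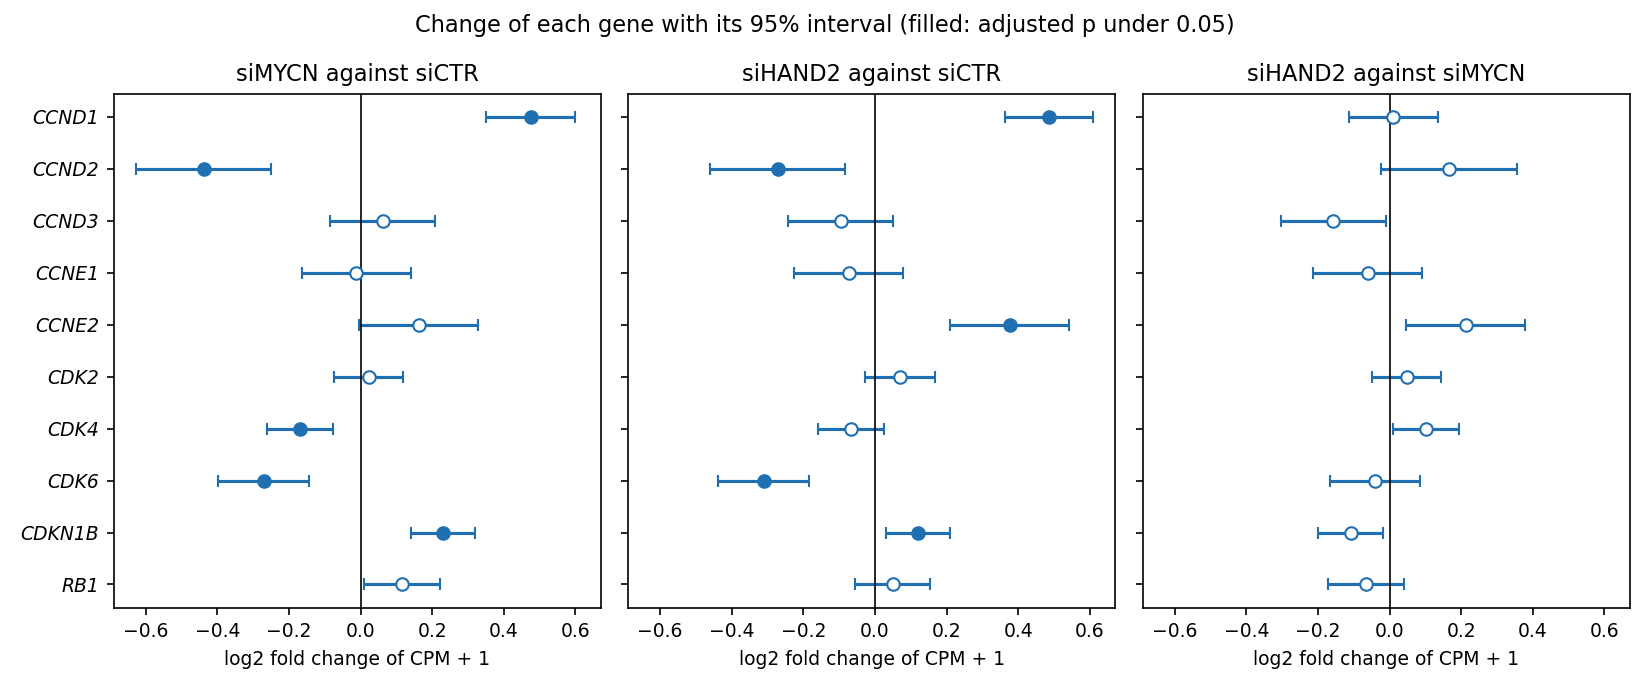
Log2 fold change of CPM + 1 (horizontal axes) with its 95% interval for each of the 10 genes in the 3 comparisons, where filled points passed an adjusted p of 0.05 and open points did not. CCND1 stands at 0.47 and 0.49 against siCTR and at 0.01 between the knockdowns, where no point is filled.

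CCND1 (chromosome 11, 69641156 to 69654474, GRCh38) encodes cyclin D1, the partner of CDK4 and CDK6 that growth factor signals most often raise. It measured 1042, 950.1 and 991 CPM in siCTR replicates 1, 2 and 3. The siMYCN libraries gave 1448, 1273 and 1429 CPM, and the siHAND2 libraries 1424, 1465 and 1292 CPM. Every knockdown library thus lay above every control library, and the knockdowns overlapped each other. Its means were 994 ± 46.1, 1384 ± 96.1 and 1394 ± 90.1 CPM (SD over 3 libraries each). CCND1 rose by 0.47 in siMYCN (fold change on the log2(CPM + 1) scale used throughout, standard error 0.06, limma adjusted p = 1.15e-05) and by 0.49 in siHAND2 (adjusted p = 8.92e-06). Both calls held under all 18 alternatives, within 0.41 to 0.65 in siMYCN and 0.44 to 0.55 in siHAND2. The direct difference of siHAND2 from siMYCN was 0.01, with a 95% interval from -0.11 to 0.13.

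CCND2 (chromosome 12, 4273762 to 4305353), the gene of cyclin D2, moved the other way. It stood at 8.95, 9.01 and 8.09 CPM with the control siRNA, at 6.66, 5.43 and 6.40 CPM with siMYCN and at 7.53, 6.81 and 6.72 CPM with siHAND2. All knockdown libraries lay below all control libraries, and the siHAND2 libraries lay above the siMYCN libraries. The change was -0.44 in siMYCN (standard error 0.09, limma adjusted p = 0.00119), a call that held under all 18 alternatives. In siHAND2 it was -0.27 (adjusted p = 0.03). That call was lost with no filter on low values and without siCTR replicate 1 (-0.25), siCTR replicate 2 (-0.25), siHAND2 replicate 2 (-0.25) or siHAND2 replicate 3 (-0.25). CCND2 rested on 141 to 293 reads per library, where counting error alone reaches a coefficient of variation of 8.41%. The noncoding gene AC008012.1 starts at the same base on the same strand and covers CCND2, so reads could have been split between them. Summed, they reached 13.8 ± 0.408 CPM in the controls, 9.47 ± 1.37 with siMYCN and 11.1 ± 1.53 with siHAND2, and the summed level too was lower in every knockdown library than in any control library.

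CCND3 (chromosome 6, 41934934 to 42050357), the gene of cyclin D3, had control values of 19.3, 18.9 and 17.5 CPM, siMYCN values of 19.4, 19.9 and 18.9 CPM and siHAND2 values of 16.6, 16.3 and 19.0 CPM. The groups overlapped in all 3 comparisons. The difference was 0.06 in siMYCN (95% interval -0.08 to 0.21, limma adjusted p = 0.52), with its sign turned by quantile normalization (-0.017), and -0.10 in siHAND2 (-0.24 to 0.05, adjusted p = 0.325). As a share of the CPM of all 3 D cyclin genes, CCND1 made up 97.3 ± 0.172% with siCTR, 98.2 ± 0.117% with siMYCN and 98.3 ± 0.205% with siHAND2 (SD over 3 libraries). The summed D cyclin level therefore followed CCND1, at 1022 ± 46.4, 1409 ± 96.4 and 1418 ± 88.8 CPM.

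The E cyclin genes parted in siHAND2. CCNE2 (chromosome 8, 94879770 to 94896678), which encodes cyclin E2, stood at 13.4, 12.0 and 14.9 CPM with the control siRNA, at 14.7, 15.0 and 15.7 CPM with siMYCN and at 18.5, 16.3 and 18.3 CPM with siHAND2. The siHAND2 libraries were above all others, whereas siCTR and siMYCN overlapped through siCTR replicate 3. CCNE2 rose by 0.38 in siHAND2 (standard error 0.08, limma adjusted p = 0.00176), and the call held under all 18 alternatives. In siMYCN the difference was 0.16 (95% interval -0.0030 to 0.33, adjusted p = 0.118) and passed only without siCTR replicate 3 (0.24, adjusted p = 0.0373). The direct difference between the knockdowns was 0.21 (adjusted p = 0.0547), which missed the threshold as fitted and passed it under 8 of 18 alternatives.

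CCNE1 (chromosome 19, 29811991 to 29824312), which encodes cyclin E1 and is a textbook E2F target, had control values of 14.1, 12.2 and 12.7 CPM, siMYCN values of 13.0, 13.0 and 12.5 CPM and siHAND2 values of 12.9, 11.7 and 12.2 CPM. All groups overlapped. The differences were -0.012 in siMYCN (95% interval -0.16 to 0.14, limma adjusted p = 0.917) and -0.07 in siHAND2 (-0.22 to 0.08, adjusted p = 0.479). The first changed sign without siCTR replicate 1 (0.04) or siMYCN replicate 3 (0.0045).

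CDK6 (chromosome 7, 92604921 to 92836573) encodes one of the kinases that cyclin D activates. It stood at 692, 668 and 685 CPM with the control siRNA, at 546, 552 and 598 CPM with siMYCN and at 494, 553 and 607 CPM with siHAND2. The knockdown libraries were all lower than the control libraries, and the siHAND2 libraries were the most spread, with a SD of 56.6 CPM against 12.4 in siCTR. CDK6 fell by 0.27 in siMYCN (standard error 0.06, limma adjusted p = 0.00223) and by 0.31 in siHAND2 (adjusted p = 0.000902). Both calls held under all 18 alternatives. The difference between the knockdowns was -0.04, with a 95% interval from -0.17 to 0.09.

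CDK4 (chromosome 12, 57747727 to 57756013), which encodes the other cyclin D kinase, had control values of 145, 151 and 145 CPM, siMYCN values of 134, 129 and 129 CPM and siHAND2 values of 147, 141 and 134 CPM. The siMYCN libraries lay below all siCTR libraries, and the siHAND2 libraries overlapped both groups. CDK4 fell by 0.17 in siMYCN (standard error 0.04, limma adjusted p = 0.00628), and this call held under all 18 alternatives. In siHAND2 the difference was -0.07 (95% interval -0.16 to 0.03, adjusted p = 0.275). The difference between the knockdowns was 0.10 (0.01 to 0.19, adjusted p = 0.0916), so a change confined to siMYCN was not shown. TSPAN31 and MARCHF9 on the other strand overlap the deposited CDK4 span, at 21.2 and 17.2 CPM in siCTR, and how strand was counted is not given in the sources used here.

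MYC family proteins bind the E-box CACGTG, and CDK4 is a known target with several of them, so its promoter is shown with the E-boxes in capitals. The windows are the 250 bases before the RefSeq start (GRCh38.p14), written 5′ to 3′ along the gene: chr12:57752311-57752560 on the minus strand for CDK4, chr7:92836574-92836823 on the minus strand for CDK6 and chr12:12717118-12717367 on the plus strand for CDKN1B. CDK6 and CDKN1B are given because they too passed the test in siMYCN and had a window. The deposited spans of CDK4 and CDKN1B begin upstream of their RefSeq starts, so the windows of CDK4 and CDKN1B lie inside those spans.
CDK4: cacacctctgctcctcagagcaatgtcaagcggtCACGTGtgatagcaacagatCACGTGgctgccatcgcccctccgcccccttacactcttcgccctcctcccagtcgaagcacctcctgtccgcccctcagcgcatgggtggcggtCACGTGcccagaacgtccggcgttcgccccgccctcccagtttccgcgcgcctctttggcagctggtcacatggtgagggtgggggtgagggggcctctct
CDK6: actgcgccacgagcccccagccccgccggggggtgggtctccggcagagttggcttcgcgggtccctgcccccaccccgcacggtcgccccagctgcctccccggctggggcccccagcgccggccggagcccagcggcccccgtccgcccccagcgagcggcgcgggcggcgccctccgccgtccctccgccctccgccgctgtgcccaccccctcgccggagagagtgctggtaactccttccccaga
CDKN1B: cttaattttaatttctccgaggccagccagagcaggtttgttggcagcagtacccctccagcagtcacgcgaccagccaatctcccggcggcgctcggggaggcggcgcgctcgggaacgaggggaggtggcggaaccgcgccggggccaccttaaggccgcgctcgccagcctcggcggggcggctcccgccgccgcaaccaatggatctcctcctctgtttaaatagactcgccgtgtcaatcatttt
The CDK4 window holds CACGTG at 3 places, starting 216, 196 and 101 bases before the start. The motif reads the same on both strands. At least 1 match occurs in 6.39% of the 24244 RefSeq windows that end at the start of their gene. None of the other 3 members with such a window (CCNE1, CDK6 and CDKN1B) had a match. The E-box form CATCTG, known from HAND2 with its E-protein partners, was searched on both strands and occurs in 12.4% of all such windows, and the E2F motifs TTTCCCGC and TTTGGCGC in 1.37% and 0.549%. None of these 3 strings was present in the 4 windows searched. A match is a string of letters and not a measured site, and no binding was measured.

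CDK2 (chromosome 12, 55966781 to 55972789), the kinase of the E cyclins, was among the steadiest of the 10. It stood at 50.3, 51.6 and 52.0 CPM with the control siRNA, at 51.9, 53.2 and 51.2 CPM with siMYCN and at 55.8, 52.7 and 53.1 CPM with siHAND2. The siHAND2 libraries lay just above the siCTR libraries, by 0.07 on average (95% interval -0.03 to 0.17, limma adjusted p = 0.27). In siMYCN the difference was 0.02 (-0.07 to 0.12, adjusted p = 0.743), and it turned negative after median-ratio rescaling (-0.036) and quantile normalization (-0.028). The deposited span of PMEL on the other strand covers all of CDK2 (6009 bp). PMEL stood at 28.0 ± 1.75 CPM in the controls, at 36.1 ± 1.65 with siMYCN and at 18.7 ± 0.772 with siHAND2, so its order over the groups was not that of CDK2.

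CDKN1B (chromosome 12, 12715058 to 12722369) encodes p27, which holds CDK2 in check. It had control values of 211.7, 199 and 196 CPM, siMYCN values of 241, 238 and 232 CPM and siHAND2 values of 226, 222 and 212.1 CPM. The 3 groups did not overlap, with siMYCN highest and siCTR lowest, although the nearest siHAND2 and siCTR libraries were less than 1 CPM apart. CDKN1B rose by 0.23 in siMYCN (standard error 0.04, limma adjusted p = 0.000524), under all 18 alternatives. In siHAND2 it rose by 0.12 (adjusted p = 0.0406), but that call was lost under 10 of 18 alternatives. Among them were median-ratio rescaling (0.08, adjusted p = 0.216), quantile normalization (0.09) and the fits without siCTR replicate 2 (0.11) or 3 (0.10), without siHAND2 replicate 1 (0.10) or 2 (0.11) and without siMYCN replicate 1 (0.12). The difference of siHAND2 from siMYCN was -0.11 (95% interval -0.20 to -0.02, adjusted p = 0.0686).

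The p27 turnover genes and other ligase subunits formed a list of 14 genes, of which 13 passed the filter. In siMYCN 5 passed the test, 2 higher and 3 lower, beside 35.9% of all genes, with none higher after either other scaling or without siMYCN replicate 1. In siHAND2 5 passed, 1 higher and 4 lower, beside 29.9% of all genes. SKP2, the subunit that recognises p27, went from 137 ± 2.12 CPM in siCTR to 119 ± 0.623 in siMYCN and 111 ± 6.40 in siHAND2. It fell by 0.20 (limma adjusted p = 0.00212) and 0.31 (adjusted p = 7.32e-05). CKS1B, the small cofactor that SKP2 needs for p27, fell from 163 ± 8.63 to 138 ± 4.01 CPM in siMYCN (-0.23, adjusted p = 0.000889) and measured 156 ± 4.41 CPM in siHAND2. CUL4A, a cullin scaffold, fell by 0.25 and 0.24 (adjusted p = 0.000262 and 0.000569), while its relative CUL4B rose in siHAND2 from 68.5 ± 0.604 to 102 ± 6.79 CPM (0.57, adjusted p = 3.62e-07). FBXO31, a ligase subunit linked to cyclin D1, fell in siHAND2 by 0.25 (adjusted p = 0.00552). These calls of SKP2, CKS1B, CUL4A, CUL4B and FBXO31 held under all 18 alternatives. AMBRA1, a receptor subunit for the destruction of D cyclins, rose in siMYCN by 0.19 and RNF123 by 0.16, and both calls were lost after either other scaling.

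Of the 6 other CDK inhibitor genes, 4 passed the filter, while CDKN2A (0.58 ± 0.20 CPM) and CDKN2B (0.20 ± 0.0988 CPM) stayed below it (siCTR values). In each knockdown 3 of the 4 were higher and none was lower, beside 24.5% (siMYCN) and 18.1% (siHAND2) of all genes called higher. CDKN2D, the gene of the CDK4 and CDK6 inhibitor p19, rose from 13.6 ± 0.928 to 26.5 ± 1.28 CPM in siMYCN (0.91, limma adjusted p = 6.97e-08) and measured 15.1 ± 0.308 CPM in siHAND2 (0.14, adjusted p = 0.113). CDKN2C, the gene of p18 of the same family, rose from 35.2 ± 0.758 CPM to 42.6 ± 0.802 in siMYCN and 40.4 ± 1.83 in siHAND2 (0.27 and 0.20, adjusted p = 0.000591 and 0.00776). CDKN1A, the p53 target p21, rose in siHAND2 from 47.0 ± 2.04 to 55.2 ± 2.57 CPM (0.23, adjusted p = 0.00617) and differed by 0.0012 in siMYCN. CDKN1C, the gene of p57, went from 6.00 ± 0.901 CPM to 8.63 ± 1.14 and 7.89 ± 0.325 (0.46 and 0.35, adjusted p = 0.00254 and 0.0173), with the siHAND2 call lost after quantile normalization and without siCTR replicate 3 or siHAND2 replicate 2.

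RB1 (chromosome 13, 48303726 to 48599436) encodes the protein that the kinases act on. It stood at 97.3, 92.3 and 91.2 CPM with the control siRNA, at 99.8, 97.9 and 107 CPM with siMYCN and at 93.6, 94.3 and 103 CPM with siHAND2. The siMYCN libraries lay above the siCTR libraries, though the lowest of the first and the highest of the second differed by less than 1 CPM, and siHAND2 overlapped both. The difference in siMYCN was 0.11 (95% interval 0.0090 to 0.22), with limma adjusted p = 0.0852. It passed under 3 of 18 alternatives. These were the replicate number as a block (adjusted p = 0.0483), the compared groups alone (adjusted p = 0.0484) and the fit without siHAND2 replicate 3 (adjusted p = 0.0384). The adjusted p was highest, at 0.389, after median-ratio rescaling. In siHAND2 the difference was 0.05 (-0.06 to 0.15, adjusted p = 0.496). The deposited RB1 span runs past its RefSeq end at 48481890 and over RCBTB2 on the other strand, which stood at 13.5 ± 0.753 CPM in the controls, at 18.6 ± 1.10 with siMYCN and at 18.3 ± 0.0856 with siHAND2.

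All 12 genes of the list of RB1 relatives and E2F factors passed the filter. In siMYCN 4 passed the test, 2 higher and 2 lower (35.9% of all genes), and in siHAND2 3 passed, 2 higher and 1 lower (29.9% of all genes). The 1 lower became 3 after median-ratio rescaling or without siHAND2 replicate 3, and 2 without siHAND2 replicate 2. TFDP2, a dimer partner of E2F factors, fell from 91.5 ± 1.29 CPM to 74.1 ± 2.20 in siMYCN (-0.30, limma adjusted p = 6.99e-05) and to 82.3 ± 3.08 in siHAND2 (-0.15, adjusted p = 0.016), the latter lost without siCTR replicate 2 or siHAND2 replicate 1. E2F5, a repressor that works with the pocket proteins, fell in siMYCN from 21.1 ± 1.49 to 16.7 ± 1.40 CPM (-0.32, adjusted p = 0.00521). E2F8, an atypical repressor of the family, rose from 6.42 ± 0.91 to 8.73 ± 0.333 and 8.96 ± 0.661 CPM (0.40 and 0.43). E2F1, the classical activator, rose by 0.18 in siMYCN (adjusted p = 0.0179), a call lost after median-ratio rescaling and quantile normalization and without siCTR replicate 3 or siMYCN replicate 1. RBL1, the pocket protein p107, rose by 0.20 in siHAND2, a call lost without siCTR replicate 3 or siHAND2 replicate 3.

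The list of the DREAM and MuvB complex held subunits that keep cell cycle genes down in resting cells, and also MYBL2 and FOXM1, activators that join MuvB later in the cycle. It had 3 of 8 genes higher in siMYCN (24.5% of all genes) and 2 of 8 in siHAND2 (18.1%), with none lower as deposited. Without any 1 of the control libraries, or after either other scaling, 1 gene was higher in siMYCN, and without siCTR replicate 1 or 2 or siHAND2 replicate 3, 1 gene was higher in siHAND2. After median-ratio rescaling 1 gene was lower in each knockdown. DYRK1A, a kinase that promotes the assembly of DREAM, rose from 121 ± 5.46 CPM to 155 ± 5.91 and 143 ± 3.56 (0.36 and 0.25, limma adjusted p = 1.73e-05 and 0.000616), under all 18 alternatives. LIN37 (0.25) and MYBL2 (0.14) in siMYCN and LIN52 (0.20) in siHAND2 also rose, but each of these calls was lost under 7 or more of the alternatives, both other scalings included. The list of kinases and phosphatases that switch CDKs on or off had 3 of 8 genes past the test in siMYCN, beside 35.9% of all genes. PKMYT1 (0.17) and CDC25B (0.13) rose and CCNH (-0.22) fell. All of these calls were lost under 6 or more alternatives, and with median-ratio rescaling or quantile normalization the list had none higher and 3 lower in siMYCN. In siHAND2 limma called none of the 8, beside 29.9% of all genes. Of the 8, 1 had an unadjusted p under 0.05 and 1 was called with the replicate block.

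**Figure D3:**
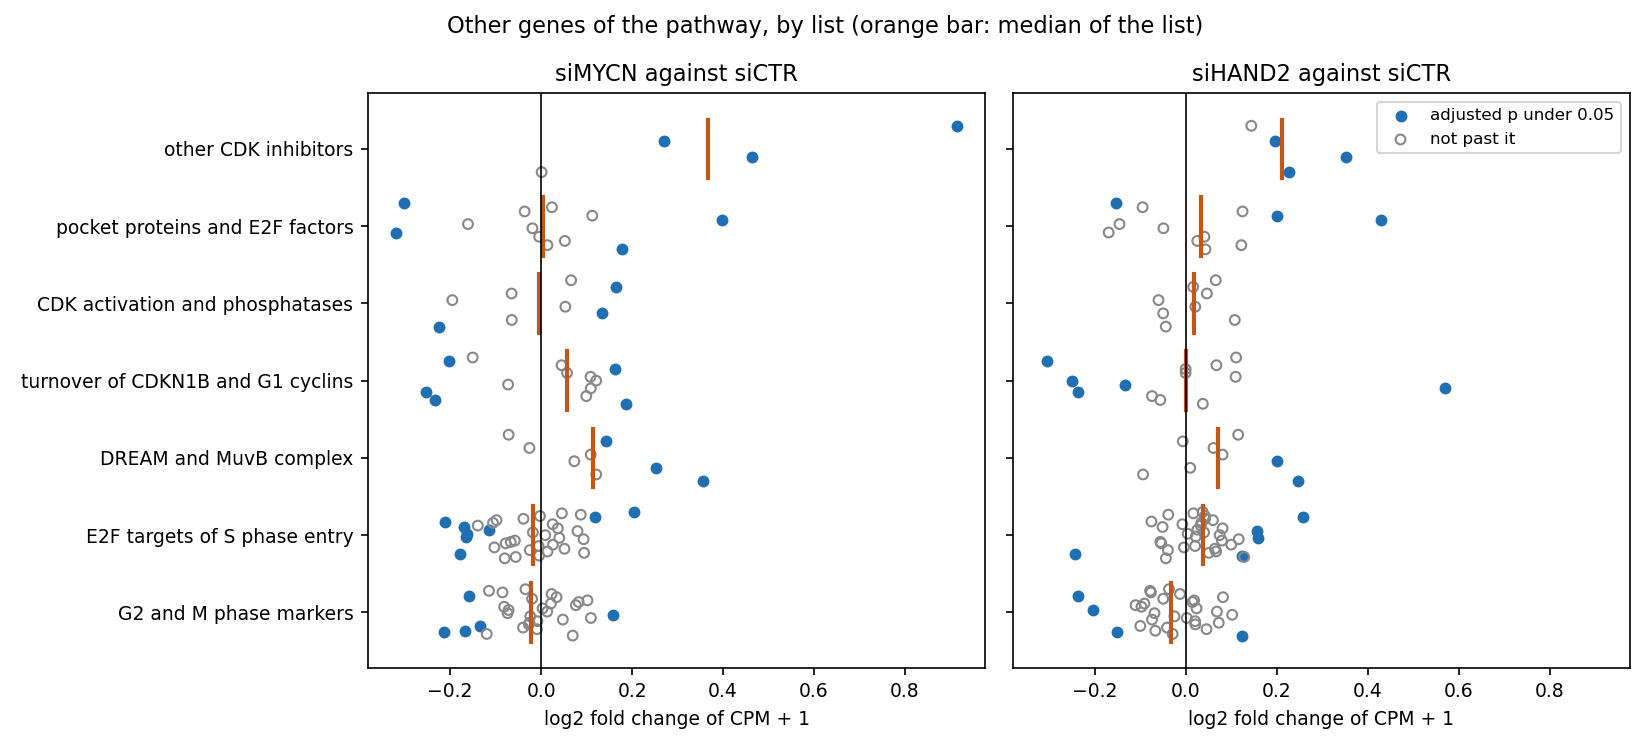
Log2 fold change of CPM + 1 (horizontal axes) of each tested gene in 7 lists of the pathway, in siMYCN and siHAND2 against siCTR, with filled points past an adjusted p of 0.05 and an orange bar at the median of the list. CDKN2D stands apart at 0.91 in siMYCN, and the medians of the S phase and the G2 and M lists lie within 0.04 of 0.

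Genes downstream of the switch had medians close to 0. Of 35 E2F targets of S phase entry, all tested, 8 passed in siMYCN, 2 higher and 6 lower, with a median of -0.018. Over all genes, 35.9% passed there, 24.5% higher and 11.4% lower, with a median of 0.06. In siHAND2 5 of the 35 passed, 4 higher and 1 lower, with a median of 0.04. Over all genes, 29.9% passed there, 18.1% higher and 11.8% lower, with a median of 0.04. The counts of the list depended on scaling and on single libraries. In siMYCN none was higher and 13 were lower after median-ratio rescaling, beside 2406 and 2353 of all 14495 genes. After quantile normalization 12 were lower, beside 2395 of all genes. Only 2 were lower without siCTR replicate 1 or siMYCN replicate 1 or 3, and 3 without siCTR replicate 3. In siHAND2 the count of higher genes was 1 with median-ratio rescaling and 2 with quantile normalization or without siCTR replicate 1 or 2. Over all genes, 1937 were higher there with median-ratio rescaling and 1981 with quantile normalization. The summed level of the 35 targets was 5147 ± 81.6 CPM with siCTR, 5086 ± 48.9 with siMYCN and 5312 ± 96.9 with siHAND2 (SD over 3 libraries). Between the knockdowns limma called 11 of the 35, 10 higher and 1 lower in siHAND2, beside 11.4% of all genes called higher and 15.5% lower there. The 10 became 4 without siMYCN replicate 1 or 3 or siHAND2 replicate 1, and 6 with the compared groups alone or with no intensity trend. RRM2, a subunit of the enzyme that makes deoxyribonucleotides, rose by 0.12 in siMYCN (limma adjusted p = 0.0249), a call lost under 7 of 18 alternatives. It rose from 174 ± 3.34 to 208 ± 4.85 CPM in siHAND2 (0.26, limma adjusted p = 8.6e-05). MCM6 of the replicative helicase rose there by 0.16, except after median-ratio rescaling, and the sliding clamp PCNA by 0.16, lost after both other scalings. CDT1, which loads that helicase, fell in siHAND2 by 0.24, a call lost without siCTR replicate 2. In siMYCN CDT1 fell by 0.18 (limma adjusted p = 0.0477), a call lost under 7 of 18 alternatives. RFC5, a clamp loader subunit, fell in siMYCN by 0.21 (adjusted p = 0.00817). Of 30 G2 and M phase markers, 5 passed in siMYCN, 1 higher and 4 lower, with a median of -0.022. In siHAND2 4 passed, 1 higher and 3 lower, with a median of -0.033. The shares and medians over all genes against siCTR were those given above for the S phase list. After median-ratio rescaling 8 and 7 of the 30 were lower, beside 2353 and 2313 of all 14495 genes. When 1 library was left out, 2 to 6 were lower in siMYCN and 1 to 6 in siHAND2. The siMYCN count was lowest without siCTR replicate 1 or 2 or siMYCN replicate 3. The siHAND2 count was lowest without siCTR replicate 2 or 3 or siHAND2 replicate 2, and highest without siHAND2 replicate 3. The summed level of the 30 markers was 6098 ± 110.4, 6075 ± 50.9 and 6031 ± 225 CPM in the 3 groups. AURKB fell in siMYCN (-0.21) and in siHAND2 (-0.15, limma adjusted p = 0.0336), and BIRC5 in siMYCN (-0.17), both of the chromosomal passenger complex. PLK1, a mitotic kinase, fell in siHAND2 (-0.24, adjusted p = 0.00298) and in siMYCN (-0.16, adjusted p = 0.0288). The AURKB call in siHAND2 and the PLK1 call in siMYCN were each lost under 5 of 18 alternatives.

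**Figure D4:**
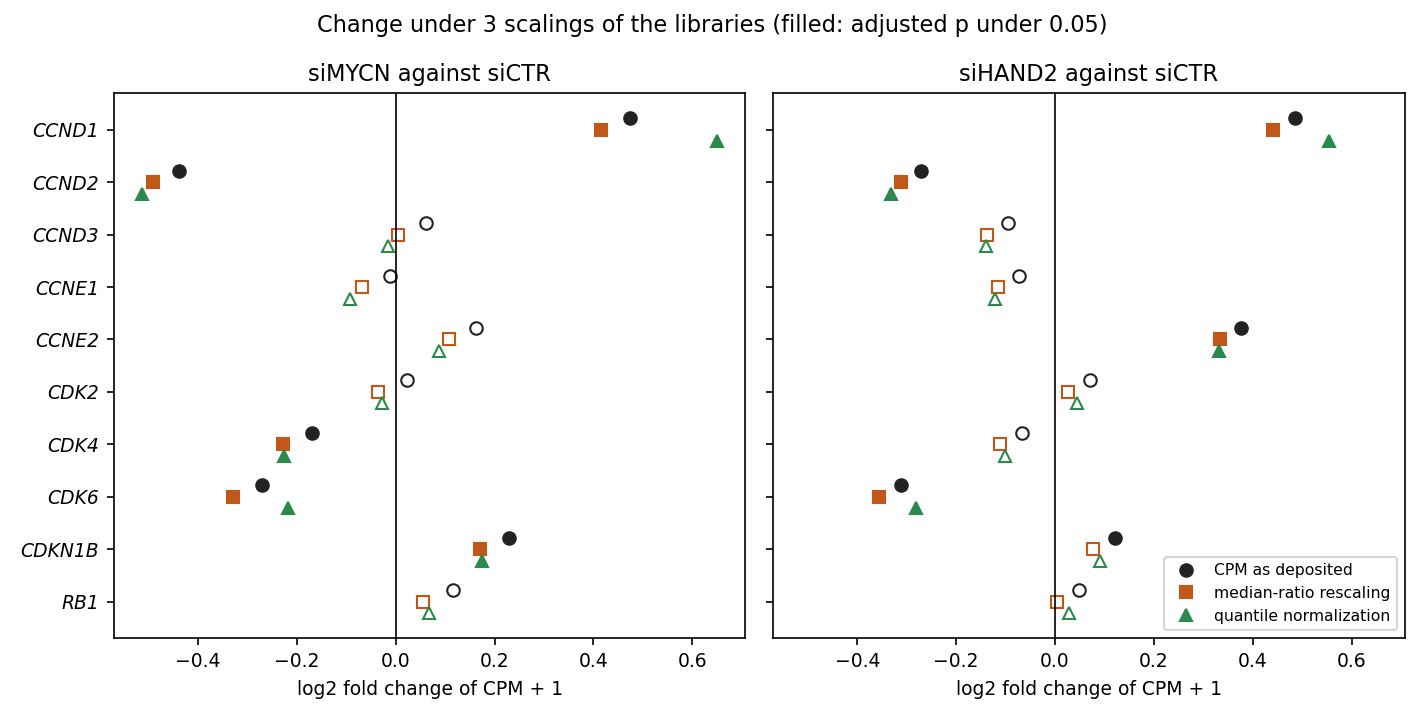
Log2 fold change of CPM + 1 (horizontal axes) of the 10 genes under 3 scalings of the libraries, CPM as deposited, median-ratio rescaling and quantile normalization, with filled symbols past an adjusted p of 0.05. CCND1, CCND2 and CDK6 are filled under all 3 scalings in both comparisons, CDK4 and CDKN1B in siMYCN and CCNE2 in siHAND2, while CDKN1B in siHAND2 is filled only with CPM as deposited.

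The CPM ratio of 2 members within a library stays the same when the library is multiplied by a factor, though not under quantile normalization. With 3 libraries against 3, the smallest two-sided p of an exact permutation test is 0.1, so none of the 18 tests (6 ratios in 3 comparisons) could pass 0.05, and the smallest adjusted p was 0.164. The ratio of CCND1 to CCND2 CPM was 116, 105 and 123 with siCTR, 217, 234 and 223 with siMYCN and 189, 215 and 192 with siHAND2. The 3 groups did not overlap, and siMYCN was highest. On the log2(CPM + 1) scale it differed from siCTR by 0.91 in siMYCN and 0.76 in siHAND2 (exact permutation p = 0.1 each). The CCNE1 to CCNE2 ratio was 1.05, 1.02 and 0.849 with siCTR, 0.885, 0.867 and 0.801 with siMYCN and 0.699, 0.719 and 0.666 with siHAND2, with siHAND2 below all other libraries. The CDKN1B to CDK2 ratio was 4.21, 3.86 and 3.77 with siCTR, 4.65, 4.48 and 4.54 with siMYCN and 4.05, 4.21 and 3.99 with siHAND2, so that siMYCN was apart and the others overlapped. The CDK4 to CDK6 ratio overlapped in all 3 comparisons, at 0.216 ± 0.00882, 0.232 ± 0.0149 and 0.258 ± 0.0384. The CDK2 to CDK4 ratio was 0.348 ± 0.00874 in siCTR, below all libraries of siMYCN (0.398 ± 0.0134) and siHAND2 (0.383 ± 0.0111).

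**Figure D5:**
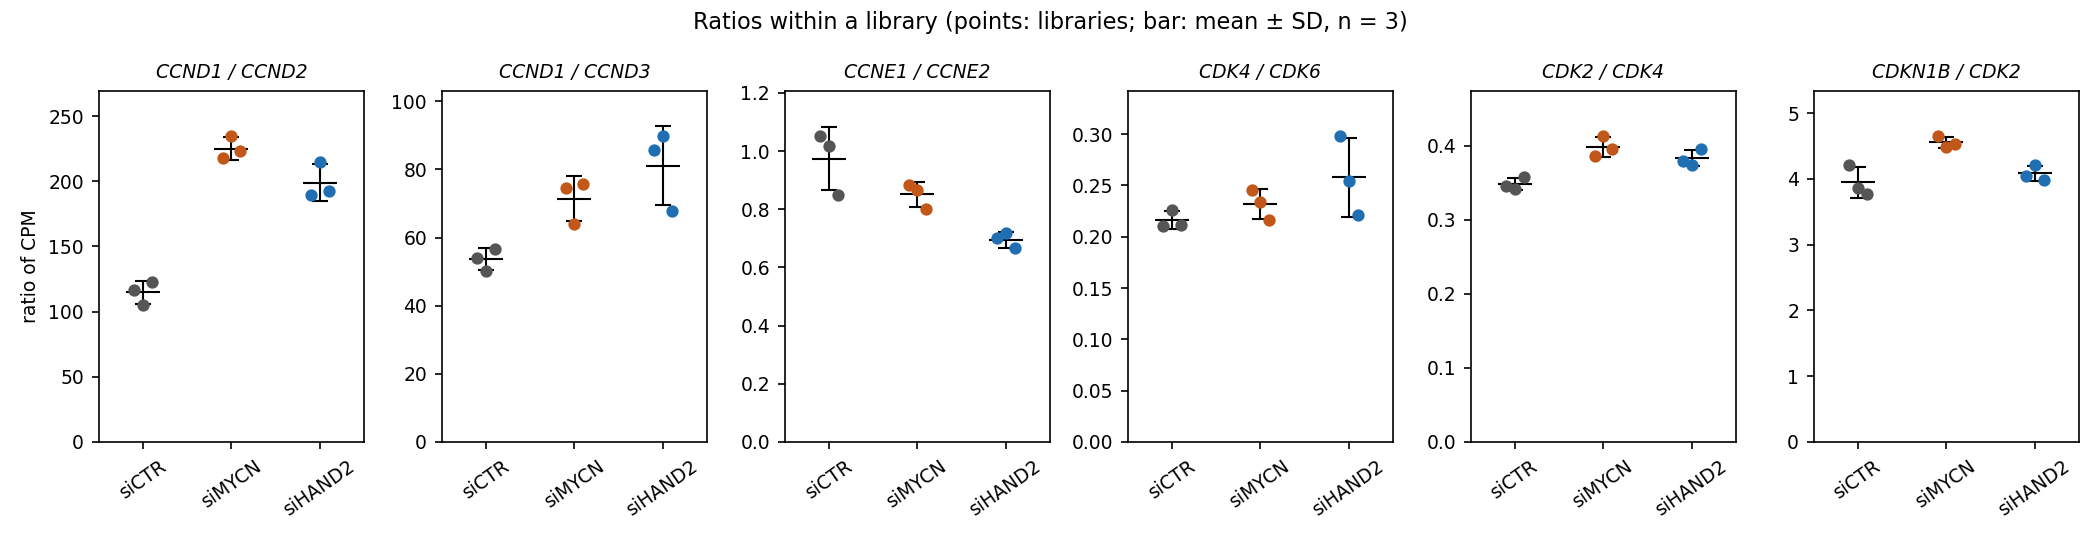
Ratio of the CPM of 2 members within each library (vertical axes, from 0) for 6 pairs, with points for libraries and bars for the mean ± SD of 3. The ratio of CCND1 to CCND2 is 115 in siCTR and 225 and 199 in the knockdowns, and that of CCNE1 to CCNE2 is lowest in siHAND2 at 0.695.

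In the direct comparison of siHAND2 with siMYCN, limma called none of the 10 genes at an adjusted p of 0.05, beside 26.9% of all genes tested (11.4% higher and 15.5% lower). At an unadjusted p under 0.05 there were 4: CCND3 (-0.16, adjusted p = 0.105), CCNE2 (0.21), CDK4 (0.10) and CDKN1B (-0.11). The widest 95% interval was that of CCND2, from -0.02 to 0.36, so differences of that size were not excluded by these libraries. Among the pathway lists, limma called 2 of 4 other CDK inhibitors, 6 of 13 turnover genes and 4 of 8 genes of the DREAM list. It also called 2 of 8 genes that switch CDKs on or off and 1 of 12 RB1 relatives and E2F factors. Of the downstream lists it called 11 of 35 S phase targets and 1 of 30 G2 and M markers. The share over all genes tested was 26.9%. CDKN2D (-0.77) and CUL4B (0.46, limma adjusted p = 3.89e-06) were among the genes called.

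CCND1, CCND2 and CCNE2 had the widest range of group means. For each, the 3 genes of most similar pattern were sought among 11200 genes averaging 5 CPM or more, by Pearson correlation of log2(CPM + 1) over the 9 libraries. The libraries share groups and scaling, so the correlations are descriptions. For CCND1 these were ZNF778 (0.989), SOX4 (0.983), a transcription factor gene, and MAP4K4 (0.982), a kinase gene. SOX4 measured 349.6, 462 and 455 CPM on average in siCTR, siMYCN and siHAND2. For CCND2 they were MAX (0.976), the partner gene of MYC proteins, PDLIM4 (0.975) and SERBP1 (0.975). MAX measured 42.2, 35.9 and 37.7 CPM. For CCNE2 they were ZCCHC10 (0.97), IWS1 (0.962) and ZNF271P (0.958), of which ZCCHC10 measured 22.4, 24.7 and 27.0 CPM.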

How the data were processed

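Total RNA of 9 LAN5 libraries was sequenced. The authors deposited 1 table of CPM values, with a constant of 0.0001 in each. Alignment with STAR 2.5.1 and use of Partek are named in the submitters' processing notes, which also name hg19 and GRCh37. Gene starts in the table lay within 5000 bp of GRCh38 starts for 91.4% of genes and of GRCh37 starts for 5.63%, so positions are given as GRCh38, ending 1 base before the deposited stop. Counting tool, strand use and annotation are not given in the sources used here. Only 80.1% to 81.5% of low values were whole multiples (within 0.02) of 1 read, so no count model was used. Counting errors cover counting only.

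Genes with at least 1 CPM in 3 libraries (14495) were fitted as log2(CPM + 1) with limma 3.58.1 in R 4.3.3, with 1 mean per group over all 9 libraries, an intensity trend and Benjamini-Hochberg adjustment. This scale understates changes of low genes. The fit was tested on simulated data. Members and lists were chosen with earlier results of these data known. Values of single genes for part of the marker lists are not reported here. All members are named, and per pathway list at most 3 called genes per direction with a mean of at least 5 CPM. The marker lists did not keep to this rule. Genes under that mean are named there, TH and DCN among them, and some genes that met the rule are not. For the 3 members with the widest range, 3 genes of like pattern are named. Deviations of same-numbered libraries from their group means correlated at 0.102 to 0.215 (siCTR with siMYCN) and 0.121 to 0.266 (siCTR with siHAND2). Libraries of different numbers reached 0.0397 and 0.179, so the pairs of siCTR with siHAND2 were less clear. Those numbers were taken as pairs from the data alone. The main fit did not use the pairs, which entered only through the replicate block. Transcript lengths came from GENCODE on GRCh37. Of 10 members, 4 had a RefSeq promoter window that ends at the RefSeq start of the gene. CCND3 and RB1 had a window inside the RefSeq gene, which was not used. The 18 alternatives were 2 pseudocounts (0.1 and 5), no filter, a filter of 5 CPM, 2 scalings, a fit of the compared groups alone, no trend, a replicate block and each library left out.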

Additional observations from a re-analysis of the deposited data

How the results depend on the processing

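Of the 10 calls among the members, 8 held under all 18 alternatives, and the exceptions were CCND2 and CDKN1B in siHAND2. The number of members called in siHAND2 against siCTR was 5, and 3 with no filter on low values and 3 to 5 when 1 library was left out (3 without siCTR replicate 2 or siHAND2 replicate 2). In siHAND2 against siMYCN it was 0, and 1 with median-ratio rescaling, a 5 CPM filter, quantile normalization or the compared groups alone, 2 with the replicate block, and 0 to 2 when 1 library was left out (1 without siCTR replicate 2, siCTR replicate 3 or siHAND2 replicate 2, and 2 without siHAND2 replicate 3). Signs turned for CCND3 in siMYCN under quantile normalization (-0.017), for CDK2 in siMYCN under median-ratio rescaling (-0.036) and quantile normalization (-0.028), and for CCNE1 in siMYCN when 1 library was left out (-0.051 to 0.043, and 0.0045 without siMYCN replicate 3). Between the knockdowns CCND1 turned to -0.095 under quantile normalization and ranged from -0.048 (without siMYCN replicate 2) to 0.065 when 1 library was left out, with -0.0055 and -0.026 without siHAND2 replicate 1 and 2, and CDK6 to 0.036 without siHAND2 replicate 1. None of these values passed the test, and the cause was not tested. No ratio changed sign under its 11 alternatives. Leaving out a library of the group outside a comparison leaves its ratio difference as it was, so those alternatives could not turn it.

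With the replicate block, 5895 genes were called in siMYCN and 5089 in siHAND2 against siCTR, against 5209 and 4339 without it, and among the members the call of RB1 in siMYCN was added. In siHAND2 against siMYCN the same-numbered libraries correlated at -0.129 to 0.434, so the numbers were not taken as pairs there. The block added CCNE2 (0.21, adjusted p = 0.0233) and CDKN1B (-0.11, adjusted p = 0.027), and 4 of 6 libraries correlated best with their own number, as was also the case for siCTR with siHAND2 (6 of 6 for siCTR with siMYCN). The block changed no other call of a member. Depth limits CCND2 most.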

Other observations

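Some genes that lie across a member on the other strand passed the test. PMEL, a melanosome gene whose deposited span covers CDK2, rose by 0.36 in siMYCN (limma adjusted p = 0.000285) and fell by 0.56 in siHAND2 (adjusted p = 3.75e-06). RCBTB2, across the deposited RB1 span, rose by 0.43 and 0.41 (adjusted p = 0.000101 and 0.000171). TSPAN31, across the end of CDK4, rose by 0.26 in siMYCN (adjusted p = 0.0192), where CDK4 fell. These genes were chosen after their values were seen, and how reads over both strands were assigned is not given in the sources used here.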
